A study of Mus musculus with 18 samples.

Results

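The glycolysis enzymes described here are 10 genes chosen by name: Hk1, Hk2, Gpi1, Pfkl, Pfkm, Aldoa, Gapdh, Pgk1, Pkm and Ldha. All 10 were found among the 21859 rows of the count table, and all 10 were among the 15944 genes that passed the filter on low counts. Their transcripts were measured by bulk RNA sequencing in mouse RPE (retinal pigment epithelium), a pigmented monolayer on which the photoreceptors rest. The 18 libraries comprised RPE of young mice (Young, 7 libraries), RPE of aged mice without vector (Old, 4 libraries), aged RPE treated with AAV2-tTA (Old-Control, 3 libraries), and aged RPE treated with AAV2-tTA;TRE-OSK (Old-OSK, 4 libraries). The vector is an adeno-associated virus of serotype 2 (AAV2). The transactivator tTA switches on genes placed behind the TRE promoter, here OSK, the transcription factors Oct4 (Pou5f1), Sox2 and Klf4. All 7 treated libraries carry AAV2-tTA. The promoter that drives tTA and the strain, ages, vector doses and times after injection are not given in the sources used here, and no label says whether a library is 1 animal or a pool.

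Glycolysis splits glucose into pyruvate in the cytosol. Hexokinases trap glucose as its phosphate, the glucose phosphate isomerase Gpi1 and the phosphofructokinases prepare the sugar for cleavage, the aldolase Aldoa cleaves it, Gapdh and Pgk1 carry out the oxidation and an ATP-forming step, the pyruvate kinase Pkm makes pyruvate, and Ldha reduces pyruvate to lactate. In the outer retina the RPE passes glucose from the choroid to the photoreceptors and takes up the lactate they release. Rod photoreceptors run a high rate of glycolysis even in oxygen and are a known site of Hk2 expression in the retina, while the lactate dehydrogenase subunit Ldhb favours the conversion of lactate back to pyruvate.

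Total counts lay between 18104828 and 32348136 per library. Pou5f1 stood at 50.2 to 97.4 CPM (counts scaled to a library of 1000000) in the 4 Old-OSK libraries and at no more than 3.75 CPM in the other 14. The visual cycle gene Rpe65, a defining RPE gene, was present in all libraries, at 1189 CPM or more. The 8 RPE marker genes summed to between 38653 and 64264 CPM in Young, 26464 and 46544 in Old, 19801 and 61738 in Old-Control, and 14812 and 29350 in Old-OSK. The 9 rod marker genes, none of which was at 0 in all libraries, summed to 442 to 3139 CPM in Young, 2230.3 to 7518 in Old, 1753 to 18400 in Old-Control and 2907 to 7709 in Old-OSK replicates 1 to 3. Old-Control replicate 2 (18400 CPM) and Old-OSK replicate 4 (15523 CPM) stood apart from the rest of the libraries in rod transcripts. Both of these, Old-Control replicate 3 and Young replicates 5, 6 and 7 carry a letter M in their library names, which the labels do not explain. In bulk tissue, fewer cells of a type and less RNA per cell cannot be told apart.

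The promoters of these genes are shown because several members vary together across the libraries, and because the short motif ACGTG, the core of the hypoxia response element, is known from promoters of glycolytic genes. Whether members that hold the motif vary together was not tested. RefSeq windows (GRCm38.p6) were matched for all 10 members, 18 windows in all, each of the 250 bases before a transcript start. ACGTG, searched on both strands with overlapping matches counted, was found in 8 of the 18 windows and in 6 of the 10 genes. The overlapping Aldoa windows chr7:126799179-126799428 and chr7:126799255-126799504 hold the same match and are both counted. Of the 32851 mouse promoter windows of the same length, 16.6% held it. That share is per window, and no share per gene was computed to set beside the count of genes. The windows below, printed 5′ to 3′ with ACGTG or its reverse complement in capitals, overlap no annotated exon. Ldha, Pgk1, Hk2 and Aldoa are shown as members that the comparisons name, and Gapdh as a member whose window holds no match. Pfkl, whose single window also holds no match, is not printed because that window overlaps an annotated exon. The windows lie at chr7:46845554-46845803 on the + strand (Ldha), chrX:106186850-106187099 on the + strand (Pgk1), chr6:82774455-82774704 on the - strand (Hk2), chr7:126799255-126799504 on the - strand (Aldoa) and chr6:125165774-125166023 on the - strand (Gapdh).
Ldha: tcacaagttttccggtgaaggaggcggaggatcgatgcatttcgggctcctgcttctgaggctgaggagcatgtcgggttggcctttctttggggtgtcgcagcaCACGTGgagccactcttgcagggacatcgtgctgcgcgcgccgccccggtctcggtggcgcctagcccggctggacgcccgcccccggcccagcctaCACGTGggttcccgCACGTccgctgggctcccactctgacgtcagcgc
Pgk1: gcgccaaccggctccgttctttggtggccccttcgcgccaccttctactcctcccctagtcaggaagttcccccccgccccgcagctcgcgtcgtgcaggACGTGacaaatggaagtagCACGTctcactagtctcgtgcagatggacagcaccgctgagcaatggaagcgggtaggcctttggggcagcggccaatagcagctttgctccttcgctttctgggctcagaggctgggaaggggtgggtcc
Hk2: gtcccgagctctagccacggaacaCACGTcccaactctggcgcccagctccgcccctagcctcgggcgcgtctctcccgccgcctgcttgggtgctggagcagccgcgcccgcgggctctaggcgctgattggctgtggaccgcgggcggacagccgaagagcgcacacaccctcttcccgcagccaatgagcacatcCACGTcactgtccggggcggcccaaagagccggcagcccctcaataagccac
Aldoa: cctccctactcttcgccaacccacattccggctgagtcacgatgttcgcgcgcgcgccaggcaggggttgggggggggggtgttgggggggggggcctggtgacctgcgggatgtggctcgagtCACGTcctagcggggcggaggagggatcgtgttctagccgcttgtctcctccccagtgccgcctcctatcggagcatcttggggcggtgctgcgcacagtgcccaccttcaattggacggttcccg
Gapdh: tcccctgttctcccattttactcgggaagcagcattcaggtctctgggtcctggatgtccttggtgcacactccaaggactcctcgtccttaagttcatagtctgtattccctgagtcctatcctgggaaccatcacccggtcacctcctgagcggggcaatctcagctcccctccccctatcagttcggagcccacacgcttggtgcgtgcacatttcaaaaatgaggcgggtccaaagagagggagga
The Ldha window shown held 5 matches, starting 145, 144, 48, 47 and 34 bases before the start. The first 2 and the next 2 each overlap in a CACGTG. Another Ldha window, at chr7:46846832-46847081, overlaps no annotated exon and held no match. Pgk1 and Hk2 held 2 matches each, and the Aldoa window shown held 1. No window of Hk1, Gpi1, Pfkl or Gapdh held these letters. The motif CACCC, which Kruppel-like factors can bind, was found in 12 of the 18 windows and in 52% of all windows, and the octamer ATGCAAAT, which Oct4 can bind, in 0 of the 18 and in 1.6% of all windows. A match is a description of these letters and not evidence of binding.

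In young RPE Aldoa, Gapdh, Pkm and Pgk1 were the most abundant of the 10 transcripts per kilobase. Mean CPM per kilobase of merged exons in the 7 Young libraries was 279 ± 18.7 (SD) for Gapdh, 236 ± 7.56 for Pkm and 222 ± 25.3 for Pgk1, and Pkm and Pgk1 did not differ beyond their SDs. Gpi1 stood at 83.1 ± 5.40 CPM per kilobase, above Ldha at 65.7 ± 7.31 and Pfkl at 53.4 ± 7.62, whose SD ranges overlap. Pfkm followed at 39.5 ± 3.37 and Hk1 at 31.7 ± 4.17 CPM per kilobase. Hk2 was the lowest of the 10 at 2.76 ± 1.14 CPM per kilobase. The annotation holds 2 genes with the symbol Aldoa, and the table has 2 rows of that symbol without identifiers. The row used here is the larger one, and its Young level was 653 CPM per kilobase with the exon length of the longer gene and 2378 with that of the shorter, so Aldoa was the highest with either length. The other Aldoa row held at most 3.55 CPM.

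**Figure D1:**
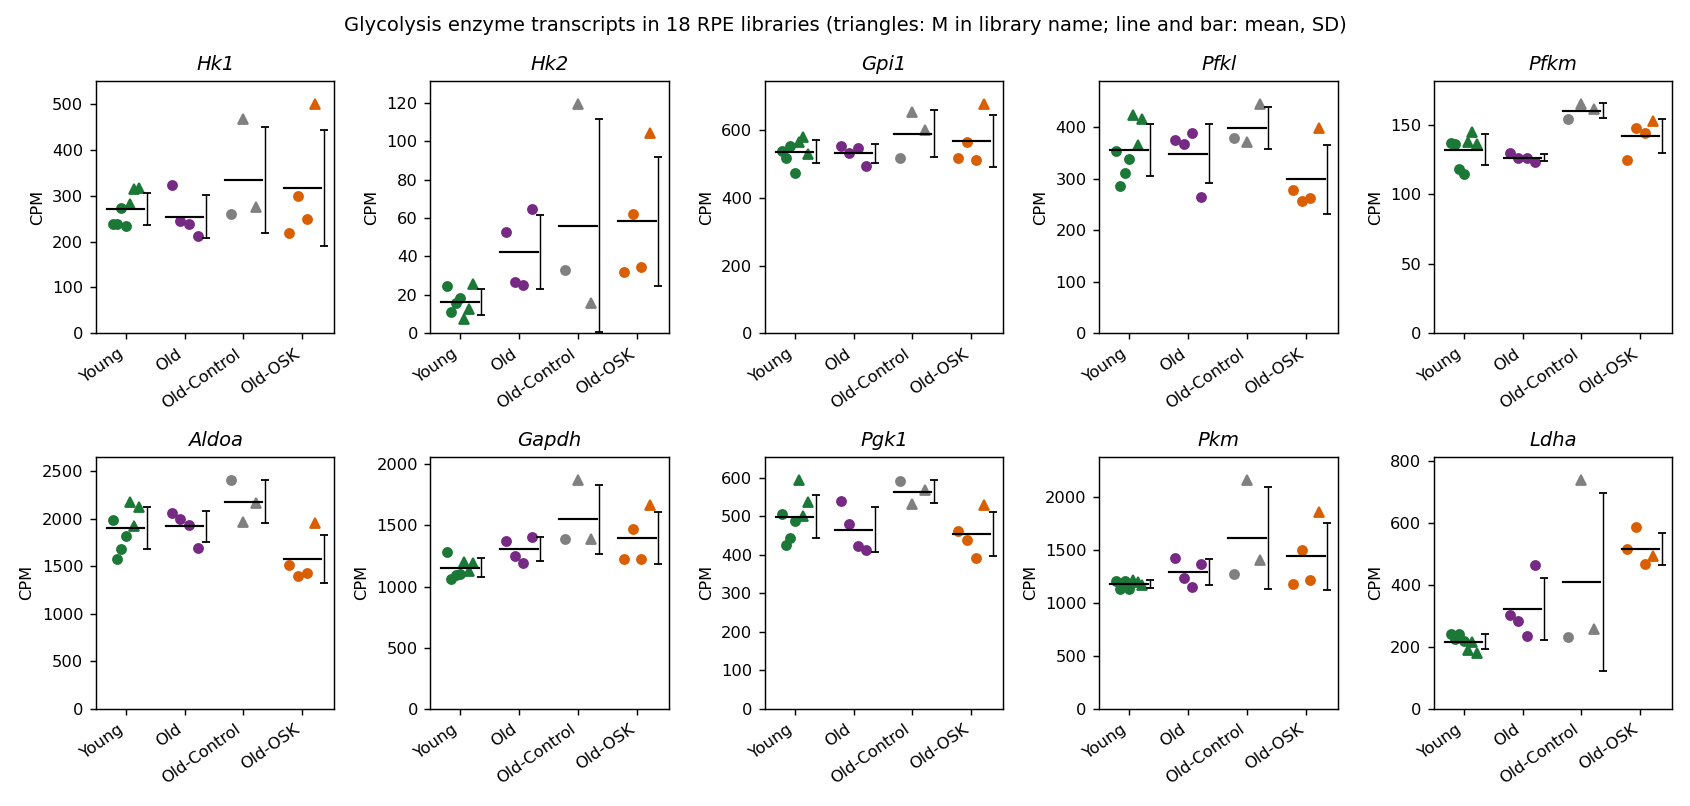
CPM of each of the 10 enzymes (vertical axis, starting at 0) in each library of the 4 groups (horizontal axis); horizontal lines are group means, error bars SDs, and triangles mark libraries with M in their names. Hk1, Hk2, Gpi1, Gapdh and Pkm have their 2 highest values in Old-Control replicate 2 and Old-OSK replicate 4, while Aldoa has its 3 lowest values in Old-OSK replicates 1 to 3.

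Age was addressed by comparing Old with Young. None of the 10 enzymes passed an adjusted p of 0.05 in edgeR's quasi-likelihood test, while 9.56% of all tested genes did. At an unadjusted p under 0.05, 2 members were higher in Old (Hk2 and Ldha) and 0 lower, where 29% of all genes passed in either direction. The median log2 fold change of the 10 was 0.0016, beside -0.0044 over all tested genes, with 5 members above 0 and 5 below. No member separated the 2 groups without overlap, which 9.3% of all genes did. Some Young libraries and no Old library carry M in their names, and the even split was not kept when M was considered. In the libraries without M, 10 members were above 0 and 0 below, with a median of 0.12 beside -0.0073 over all genes. With M as a covariate, 8 were above 0 and 2 below, with a median of 0.13 beside 0.0018 over all genes. In both settings 0 members passed an adjusted p of 0.05.

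Hk2 (chr6:82725025-82774454, - strand, GRCm38), the hexokinase isoform of muscle and of cells with a high rate of glycolysis, had the largest difference. In Young it ranged from 7.41 to 25.5 CPM with a median of 15.6. The Old libraries held 52.5, 26.7, 25.4 and 64.7 CPM in replicates 1 to 4, so that the lowest Old library touched the highest Young library. The log2 fold change was 1.36 ± 0.48 (SE), with an adjusted p of 0.0748 in edgeR. DESeq2 gave 1.37 with an adjusted p of 0.0313 (1 member passed there, beside 15.4% of all genes), and an edgeR fit of these 2 groups alone passed Hk2 (adjusted p = 0.0307) and Ldha (adjusted p = 0.0368), beside 11.3% of all genes. Among the 8 Young and Old libraries without M in their names, the difference was 1.28 ± 0.35 (adjusted p = 0.103).

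Hk2 was lowest in the library with the fewest rod transcripts and highest in the one with the most. Old replicates 2 and 3, with rod genes summing to 2251 and 2230.3 CPM, held 26.7 and 25.4 CPM of Hk2, and Young replicates 1 and 7, with 2508 and 2909 CPM of rod genes, held 24.7 and 25.5. Young replicates 3 and 4, with 1940 and 3139 CPM of rod genes, held less Hk2, at 15.6 and 18.4 CPM. The 2 Old libraries with 52.5 and 64.7 CPM of Hk2 had 7518 and 5224.5 CPM of rod genes. With the rod score (the mean log2 CPM of the 9 rod genes) in the model, the Old against Young difference in Hk2 was 0.39 ± 0.21 (adjusted p = 0.282). In that fit 0 members passed, beside 3.23% of all genes. Apart from this fit, the part of rod transcripts in the Hk2 difference was not tested.

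Ldha (chr7:46841475-46855627, + strand) had the next largest difference. It ranged from 181 to 243 CPM in Young with a median of 219, and stood at 304, 284, 236 and 466 CPM in Old replicates 1 to 4. The groups overlapped only through Old replicate 3. Old exceeded Young by 0.57 ± 0.25 on the log2 scale (adjusted p = 0.141), and by 0.25 ± 0.25 (adjusted p = 0.603) with the rod score in the model. Without Old replicate 4, which is also the highest Old library for Hk2, the differences were 0.34 for Ldha and 1.08 for Hk2.

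The other 8 enzymes differed little between Old and Young, with log2 fold changes from -0.10 for Pgk1 to 0.18 ± 0.12 for Gapdh. Hk1, the constitutive hexokinase, averaged 271 ± 35.6 CPM in Young and 254 ± 47.5 in Old. Pfkm, the muscle-type phosphofructokinase, averaged 132 ± 11.3 CPM in Young and 126 ± 2.67 in Old. Aldoa averaged 1900 ± 221 CPM (SD) in Young and 1923 ± 162 in Old.

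**Figure D2:**
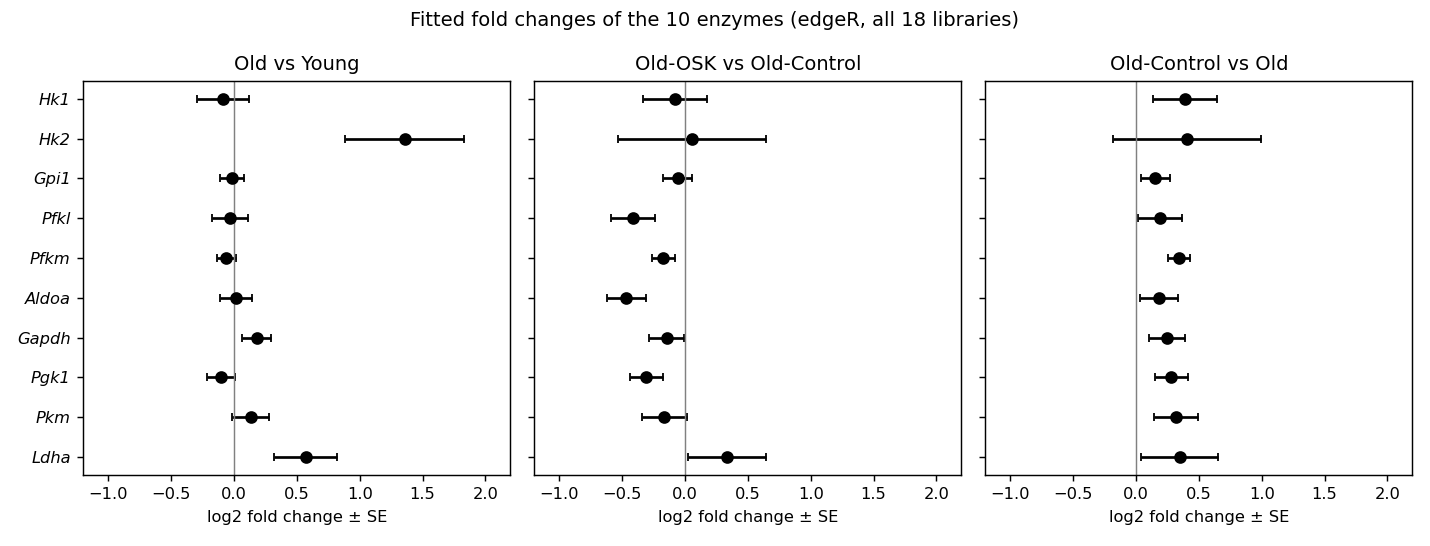
Log2 fold changes of the 10 enzymes (horizontal axis) with SEs as error bars, in 1 panel each for age (Old and Young), OSK (Old-OSK and Old-Control) and vector (Old-Control and Old). Hk2 lies at 1.36 in the first panel, Aldoa is the lowest at -0.47 in the second, and all 10 points lie above 0 in the third.

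OSK was addressed by comparing Old-OSK with Old-Control. None of the 10 enzymes passed an adjusted p of 0.05 in edgeR, beside 0.728% of all genes. At an unadjusted p under 0.05, 3 members were lower in Old-OSK (Aldoa, Pfkl and Pgk1) and 0 higher, where 26.3% of all genes passed. The median log2 fold change was -0.16, beside -0.03 over all genes, with 8 members below 0. Without Old-Control replicate 2 the median was -0.011, with 6 members below 0. Aldoa, Pgk1 and Pfkm were lower in all Old-OSK than in all Old-Control libraries, a separation that 12.4% of all genes showed in either direction.

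Aldoa (chr7:126795234-126800751 for the longer gene, - strand), which cleaves the 6-carbon sugar, had the lowest adjusted p. Its level was 1520, 1403, 1435 and 1956 CPM in Old-OSK replicates 1 to 4 and 2413, 1965 and 2165 CPM in Old-Control replicates 1 to 3. Replicate 4 of Old-OSK lay just under the lowest control, and the other 3 lay far below it. The log2 fold change was -0.47 ± 0.15 (adjusted p = 0.0927) in edgeR, and DESeq2 gave -0.46 with an adjusted p of 0.0325. Aldoa was the only member that passed in DESeq2, beside 11.6% of all genes.

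Pfkl (chr10:77986947-78010083, - strand), the liver-type phosphofructokinase, was likewise low in Old-OSK replicates 1 to 3. It stood at 278, 257, 263 and 398 CPM in Old-OSK and at 379, 372 and 446 CPM in Old-Control. Old-OSK replicate 4 lay within the control range and the other 3 below it. This gave a log2 fold change of -0.41 ± 0.17 (adjusted p = 0.148).

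Pgk1 (chrX:106187100-106203699, + strand), which makes the first ATP of the pathway, stood at 461, 438, 392 and 529 CPM in Old-OSK and at 591, 533 and 567 CPM in Old-Control. The groups were separated only by the gap between 529 and 533. On the log2 scale Old-OSK differed by -0.31 ± 0.13 (adjusted p = 0.151). Pfkm (chr15:98092589-98132451, + strand) stood at 124, 147, 144 and 152 CPM in Old-OSK and at 154, 165 and 161 CPM in Old-Control, with a log2 fold change of -0.17 ± 0.09 (adjusted p = 0.239).

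Ldha went the other way in most libraries. It stood at 516, 590, 468 and 496 CPM in Old-OSK, and at 233, 741 and 258 CPM in Old-Control. Old-Control replicate 2, the library richest in rod transcripts, was the highest of all 18, and the other 2 controls were lower than every Old-OSK library. The untreated Old replicate 4, at 466 CPM, lay just under the lowest Old-OSK library. Over all libraries the log2 fold change was 0.33 ± 0.31 (adjusted p = 0.544). Libraries with like rod transcripts differed in Ldha: Old-OSK replicates 1 and 3 (2907 and 2949 CPM of rod genes) held 516 and 468 CPM, Old-Control replicate 1 (3619 CPM of rod genes) held 233, and Young replicate 7 (2909 CPM of rod genes) held 181. They were not alike in RPE transcripts. The RPE marker genes summed to 29350 and 22037 CPM in Old-OSK replicates 1 and 3, 61738 in Old-Control replicate 1 and 60635 in Young replicate 7. The part of this in the Ldha difference was not tested.

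In Hk2 these 2 Old-OSK libraries and the control were close. Old-OSK replicates 1 and 3 held 32.1 and 34.4 CPM of Hk2 and Old-Control replicate 1 held 32.9, while Young replicates 4 and 7, with 3139 and 2909 CPM of rod genes, held 18.4 and 25.5. Old-OSK replicates 2 and 4 held 62.3 and 104 CPM, and Old-Control replicates 2 and 3 held 119 and 15.8. The log2 fold change was 0.06 ± 0.59 (adjusted p = 0.968) without and 0.24 ± 0.22 (adjusted p = 0.529) with the rod score in the model. It ran from -0.43 without Old-OSK replicate 4 to 1.24 (adjusted p = 0.131) without Old-Control replicate 2.

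The 4 remaining enzymes had log2 fold changes between -0.16 (Pkm) and -0.06 (Gpi1). Pkm (chr9:59656368-59679375, + strand) stood at 1174, 1498, 1218 and 1855 CPM in Old-OSK and at 1269, 2159 and 1402 CPM in Old-Control. Gapdh (chr6:125161715-125166467, - strand), widely used as a reference transcript, stood at 1226, 1473, 1227 and 1665 CPM in Old-OSK and at 1385, 1872 and 1386 CPM in Old-Control. Hk1 (chr10:62268855-62379908, - strand) stood at 218, 299, 249 and 499.6 CPM in Old-OSK and at 261, 467 and 274 CPM in Old-Control. Gpi1 (chr7:34201330-34230336, - strand) stood at 516, 563, 511 and 677 CPM in Old-OSK and at 517, 652 and 600.2 CPM in Old-Control. In each of these 4 the rod-rich library was the highest of its group.

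The 2 rod-rich libraries bear on this comparison, since each group holds 1 of them. Across all 18 libraries they were the 2 highest for 5 of the 10 enzymes (Hk1, Hk2, Gpi1, Gapdh and Pkm), as for 9.08% of all tested genes. Without both of them, a setting chosen after seeing the data that leaves 2 controls against 3 Old-OSK libraries, 4 members passed an adjusted p of 0.05, beside 24.2% of all genes. Ldha was then higher in Old-OSK (1.05 ± 0.22, adjusted p = 0.00868), and Aldoa (-0.70 ± 0.15, adjusted p = 0.00971), Pfkl (-0.67 ± 0.18, adjusted p = 0.0181) and Pgk1 (-0.47 ± 0.15, adjusted p = 0.0338) were lower.

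Aldoa passed when either of the 2 was left out. Without Old-Control replicate 2, Ldha (1.05, adjusted p = 0.00672) and Aldoa (-0.56, adjusted p = 0.0342) passed, beside 17.9% of all genes. Without Old-OSK replicate 4, Aldoa (-0.62, adjusted p = 0.0252) and Pfkl (-0.62, adjusted p = 0.0312) passed, beside 11% of all genes. With the rod score in the model and all libraries kept, 0 members passed, beside 0.859% of all genes. Aldoa (-0.47), Pfkl (-0.41) and Pgk1 (-0.31) then kept the size they had without it, and Ldha was at 0.42 ± 0.27 (adjusted p = 0.330). The 8 RPE marker genes were at lower sums in Old-OSK (14812 to 29350 CPM) than in Old-Control replicates 1 and 3 (61738 and 52803 CPM), and the part of this in the differences of Ldha, Aldoa, Pfkl and Pgk1 was not tested.

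**Figure D3:**
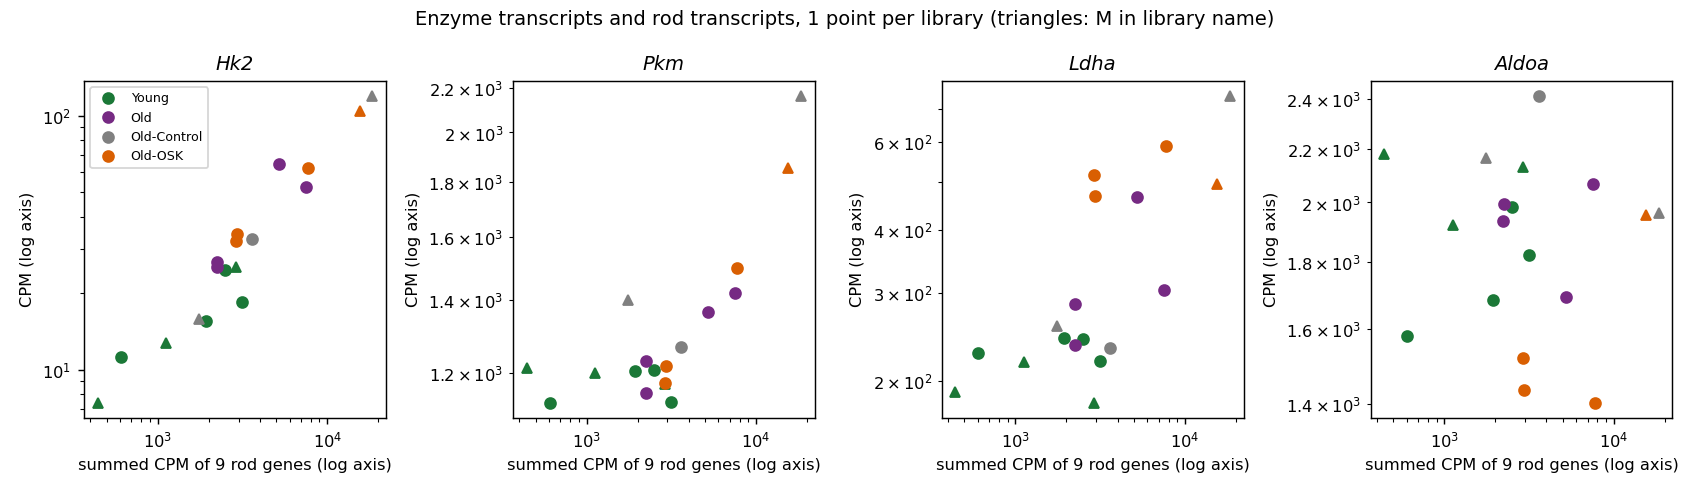
CPM of Hk2, Pkm, Ldha and Aldoa (vertical log axes) against the summed CPM of 9 rod genes (horizontal log axes), 1 point per library, coloured by group, with triangles for libraries with M in their names. Hk2 lies at 7.41 CPM in the library with the fewest rod transcripts and at 119 CPM in the one with the most, whereas all 4 Old-OSK points lie above every library but Old-Control replicate 2 in Ldha, and 3 of them are the lowest in Aldoa. In Ldha the lowest Old-OSK point (468 CPM) lies just above Old replicate 4 (466 CPM).

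**Figure D4:**
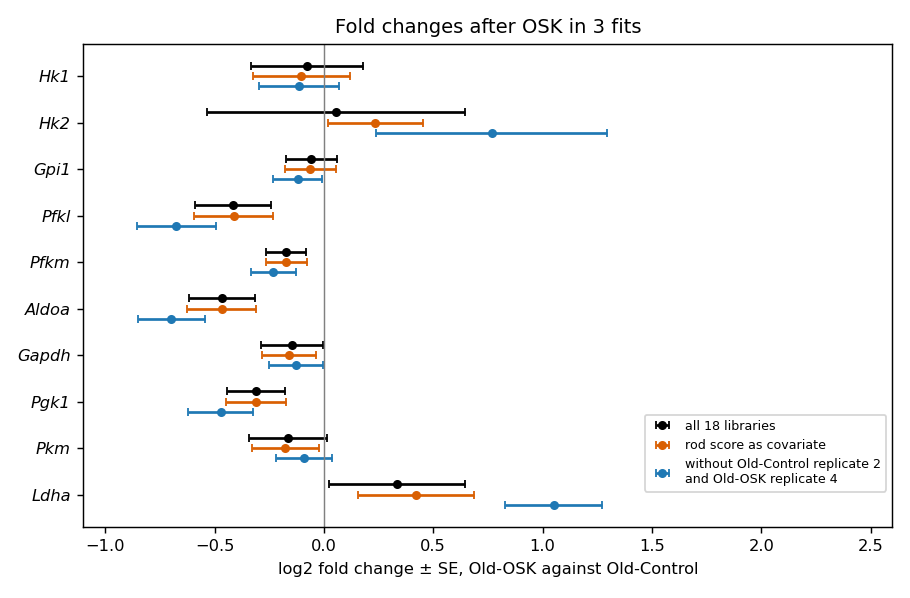
Log2 fold changes of the 10 enzymes in Old-OSK against Old-Control (horizontal axis) with SEs as error bars, with all libraries, with the rod score as a covariate, and without Old-Control replicate 2 and Old-OSK replicate 4. Ldha moves from 0.33 to 1.05 and Aldoa from -0.47 to -0.70 when the 2 libraries are left out.

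The vector itself was addressed by comparing Old-Control with Old. None of the 10 enzymes passed an adjusted p of 0.05 in edgeR or in DESeq2, nor in edgeR with the rod score in the model, beside 0% of all genes in each of the 3. All 10 had log2 fold changes above 0, from 0.15 for Gpi1 to 0.40 for Hk2, with a median of 0.30 beside 0.04 over all genes. Old-Control replicates 2 and 3 carry M in their names and no Old library does, so vector and M cannot be fully told apart. With M as a covariate, 9 members were above 0 and 1 below, and the median was 0.10 beside 0.03 over all genes. Hk1 was then at 0.03 and Hk2 at 0.04. Without Old-Control replicate 2, 8 of the 10 were above 0 and the median was 0.084. At an unadjusted p under 0.05, 2 members (Pfkm and Pgk1) were higher in Old-Control and 0 lower, where 3.74% of all genes passed. The Old-Control libraries also form the reference of the OSK comparison, so the 2 comparisons are not independent.

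Pfkm was the 1 member with no overlap between Old-Control and Old, a separation that 3.18% of all genes showed. It stood at 154, 165 and 161 CPM in Old-Control and at 130.03, 126, 126 and 124 CPM in Old. Old-Control differed from Old by a log2 fold change of 0.34 ± 0.09 (adjusted p = 0.900). For Pgk1 the Old libraries held 540, 481, 424 and 414 CPM, against 591, 533 and 567 CPM in Old-Control, with a log2 fold change of 0.28 ± 0.13 (adjusted p = 0.900). For Hk2 (0.40 ± 0.59) and Ldha (0.35 ± 0.31) the direction rested on Old-Control replicate 2: without it they were at -0.79 and -0.39.

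Isoenzyme ratios within a library do not depend on the scaling between libraries. The Hk2 to Hk1 count ratio was between 0.107 and 0.305 in the 4 Old libraries and between 0.026 and 0.104 in the 7 Young libraries, so the groups did not overlap. On the log2 scale the mean was -2.69 ± 0.71 (SD, n = 4) in Old and -4.14 ± 0.68 (n = 7) in Young, a difference of 1.45. A two-sided exact permutation test over 330 splits gave p = 0.00606, and 0.0545 after Benjamini-Hochberg adjustment over the 9 ratio tests, where the smallest possible p is 0.00303. In the 8 Young and Old libraries without M the difference was 1.18 (exact permutation p = 0.0286, the smallest that 4 against 4 libraries allow, with an adjusted p of 0.257). Old replicates 2 and 3 (2251 and 2230.3 CPM of rod genes) had Hk2 to Hk1 ratios of 0.109 and 0.107. Young replicates 1, 4 and 7 (2508, 3139 and 2909 CPM of rod genes) had 0.104, 0.079 and 0.081. The part of rod transcripts in this ratio was not tested.

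The Ldha to Ldhb count ratio stood at 1.05, 1.33, 1.01 and 0.893 in Old-OSK replicates 1 to 4, against 0.320, 1.52 and 0.308 in Old-Control replicates 1 to 3. In Young it lay between 0.267 and 0.448, and in Old at 0.478, 0.454, 0.377 and 0.923. Old replicate 4 and no other untreated library lay within the Old-OSK range, and the Young libraries and the other 3 Old libraries lay below it. The log2 difference between Old-OSK and Old-Control was 0.99 (0.08 ± 0.24, n = 4, against -0.91 ± 1.31, n = 3; two-sided exact permutation p = 0.257, adjusted p = 0.579), in a design whose smallest possible p is 0.0286. Between Old and Young it was 0.51 (exact permutation p = 0.0515, adjusted p = 0.232). In the Young and Old libraries without M it was 0.31 (exact permutation p = 0.343, adjusted p = 0.735). It was 0.24 without Old replicate 4 (exact permutation p = 0.208) and 0.67 without Old replicate 3 (exact permutation p = 0.0167, adjusted p = 0.075). The Pfkm to Pfkl ratio differed by 0.26 between Old-OSK and Old-Control (exact permutation p = 0.2) and by -0.02 between Old and Young (exact permutation p = 0.915).

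**Figure D5:**
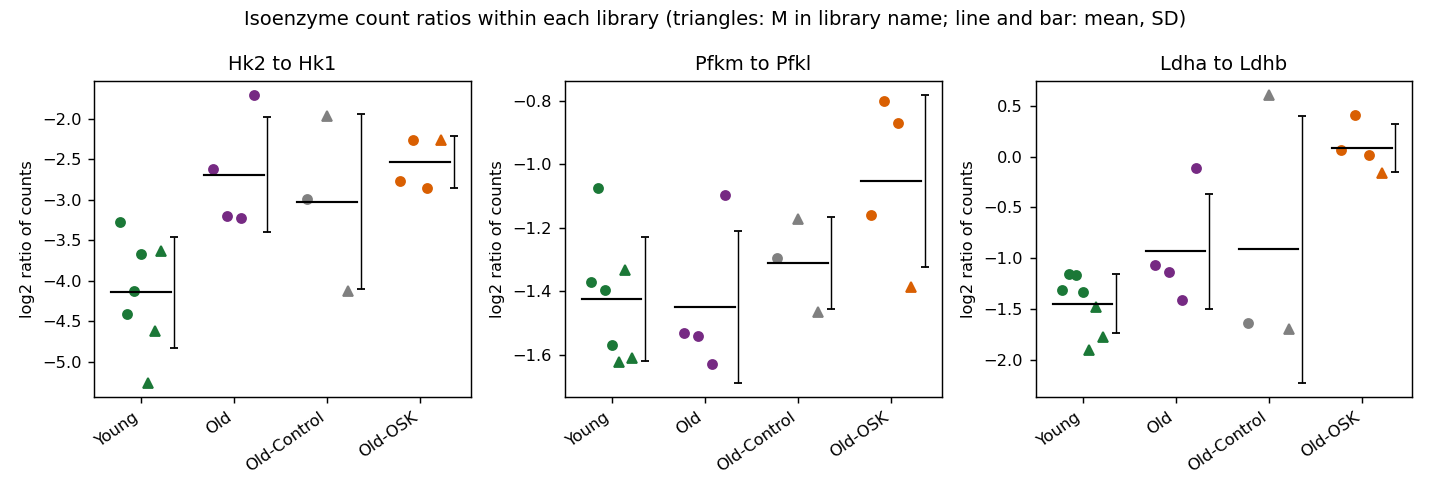
Log2 ratios of counts of Hk2 to Hk1, Pfkm to Pfkl and Ldha to Ldhb (vertical axes) in each library of the 4 groups, with group means as lines, SDs as error bars and triangles for libraries with M in their names. The Old libraries lie above the Young ones in Hk2 to Hk1, and the 4 Old-OSK libraries lie near 0 in Ldha to Ldhb while Old-Control spreads widely.

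The rest of the pathway was followed in 3 lists. Of 18 other glycolysis genes, 16 were tested, and in Old against Young 1 was called higher and 0 lower, beside 9.56% of all genes. That gene was Hk3, a hexokinase known from myeloid cells, at 0 to 0.578 CPM in Young and 1.202 to 1.92 CPM in Old (log2 fold change 2.58 ± 0.50, adjusted p = 0.00586). The 8 macrophage and microglia marker genes, none at 0 throughout, summed to 488 to 676 CPM in Young and 714 to 1198 CPM in Old. Their part in the Hk3 difference was not tested. With the rod score in the model Hk3 stayed called (2.51, adjusted p = 0.0246).

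Of 18 regulators and genes of pyruvate entry into mitochondria, 1 was called higher and 1 lower in Old against Young by edgeR, beside 9.56% of all genes. DESeq2 called 2 higher (Pfkfb3 and Pdp1) and 2 lower (Dlat and Dld) of this list there, beside 15.4% of all genes. Pfkfb3, which makes the sugar bisphosphate that activates phosphofructokinase, was higher (8.57 to 24.4 CPM in Old against 2.72 to 8.19 CPM in Young; 1.23 ± 0.37, adjusted p = 0.0449). Dlat, a subunit of the pyruvate dehydrogenase complex, was lower (70.3 to 77.8 CPM in Old against 81.8 to 93.6 CPM in Young; -0.24 ± 0.06, adjusted p = 0.0190). With the rod score in the model neither stayed called (Pfkfb3 0.87, adjusted p = 0.222; Dlat -0.22, adjusted p = 0.0750). Of 6 gluconeogenesis genes, 0 were called by edgeR or DESeq2 in any of the 3 comparisons.

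In Old-OSK against Old-Control 0 genes of the 3 lists were called by edgeR. At an unadjusted p under 0.05, 1 was higher and 5 lower among the other glycolysis genes, 1 higher and 5 lower among the regulators and 1 lower among the gluconeogenesis genes, where 26.3% of all genes passed. DESeq2 called 1 higher (Hk3) and 3 lower (Eno1, Eno3 and Pgam2) of the other glycolysis genes and 3 lower (Dlat, Dld and Pdhb) of the regulators, with adjusted p between 0.0197 and 0.0455, beside 11.6% of all genes. The 3 with the lowest p were Dlat (-0.24 ± 0.07, adjusted p = 0.0796) and the enolases Eno1 (-0.53 ± 0.16, adjusted p = 0.0849) and Eno3 (-1.14 ± 0.35, adjusted p = 0.0850). Eno1, which acts between Pgk1 and Pkm, stood at 1284, 1435, 1191 and 1775 CPM in Old-OSK and at 2092, 2313 and 1765 CPM in Old-Control. As with Pfkl, 3 of the 4 Old-OSK libraries were below every control and replicate 4 was not. In Old-Control against Old 0 genes of the 3 lists were called, and the 3 with the lowest p were Bpgm (0.39), Eno3 (0.76) and Pgam2 (0.91), each with an adjusted p of 0.900.

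The 10 enzymes did not vary as 1 group across the 18 libraries. Pearson's r of log2 CPM, given as a description, was 0.94 between Gapdh and Pkm, 0.91 between Aldoa and Pfkl, 0.87 between Hk1 and Gpi1 and 0.85 between Aldoa and Pgk1, but -0.51 between Aldoa and Ldha. These libraries differ in group, depth, rod transcripts and RPE transcripts, which the correlations share. With the mean log2 CPM of the RPE markers, r was -0.91 for Ldha, 0.70 for Aldoa, 0.61 for Pfkl and 0.50 for Pgk1. With the rod score, r was 0.72, -0.08, -0.13 and -0.04 for the same genes. For Hk2, Gapdh and Pkm, r was -0.68, -0.54 and -0.59 with the RPE markers and 0.96, 0.77 and 0.73 with the rod score. Among all other genes whose log2 CPM averaged 3 or more, the most alike were Cplx3 for Hk2 (r = 0.99), Mgarp for Ldha (0.96), Arl6 for Pkm (0.96), Guk1 for Gapdh (0.94), Got1 for Aldoa (0.93) and Klc2 for Pfkl (0.93). For Hk1 it was Rnf157 (0.91), for Pgk1 Hagh (0.88), for Pfkm Adssl1 (0.85) and for Gpi1 Nsun4 (0.84). Cplx3, a complexin of ribbon synapses, is known from photoreceptors, and Got1 is the cytosolic aspartate aminotransferase.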

How the data were processed

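The authors deposited 1 table of raw read counts per gene for 18 libraries. Per the labels' protocols, polyA RNA was amplified with SMART-Seq v4 and made into Nextera XT libraries. The submitters' processing notes name STAR 2.7.1a and featureCounts 1.6.2 and the builds GRCm38 and mm10 beside human ones. The annotation, the strand setting and the handling of reads that match several places are not given in the sources used here, so members with processed pseudogenes (Gapdh, Pkm, Pgk1, Ldha, Aldoa) are less certain, and so is the split between the 2 Aldoa rows. All count columns were matched to samples by title. Nothing in the labels says that libraries came from separate animals, so p-values measure the spread between libraries. PCR reads were counted without molecular identifiers.

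Counts were filtered with filterByExpr (minimum count 10, minimum total 15), scaled by TMM and fitted over all 18 libraries with 4 group means in edgeR 4.0.16 (glmQLFit and glmQLFTest, R 4.3.3). P-values were adjusted by Benjamini-Hochberg over 15944 genes and called under 0.05. CPM values are TMM-scaled, and an SE is the fold change divided by the square root of F. The script was tested on simulated data. Gene coordinates and exon lengths are from GENCODE M21 (GRCm38). Alternatives were DESeq2 1.42.0, its size factors in edgeR, other filters (none, or a mean count of at least 50), 2-group fits, covariates (rod score, M), a replicate block and leaving out libraries. No replicate pair of libraries agreed within sampling noise (chi-square per gene 21.2 to 317 over 36 pairs).

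Old-OSK and Old-Control libraries of the same number deviated together from their group means (r over genes 0.103, 0.421 and 0.339). Each is over 0.1, and on this check alone the numbers were taken as possible pairs there. Libraries of unlike number were not compared, so the check cannot show whether libraries were paired. Values in the text come from the main fit, which ignores such a pairing. The edgeR fit with the replicate block was an alternative. It put Aldoa at -0.58 ± 0.25 (adjusted p = 0.214) and Ldha at 0.56 ± 0.33 (adjusted p = 0.343) in Old-OSK against Old-Control. The members and lists were chosen with earlier results of these data known. All 10 members are named, and of the 3 other lists each called gene, the 3 with the lowest p per comparison and Ldhb, which enters a ratio.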

Additional observations from a re-analysis of the deposited data

Results flagged for a closer look

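In the 39 groups of 4 to 10 libraries tested (10 members and 3 ratios, in Young, Old and Old-OSK), 2 held a library far from the others by Dixon's test at its 95% level, where chance gives about 1 in 20. Both were in Pfkl. In Old, replicate 4 was the lowest at 264 CPM, while the other 3 lay between 368 and 389 CPM. In Old-OSK, replicate 4 was the highest at 398 CPM, while the other 3 lay between 257 and 278 CPM.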

How the results depend on the processing

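Over 686 combinations of a result and an alternative, 653 kept direction and side of the threshold, counting as kept 44 uncalled changes of sign smaller than 1 SE. No member and no ratio was called in the main tests, so keeping the side of the threshold means staying uncalled. The count of 653 therefore does not measure how firm a difference is. The 0 called members became 1 with DESeq2 in Old against Young (Hk2) and 1 in Old-OSK against Old-Control (Aldoa), 2 in the fit of the 2 groups alone for Old against Young, 4 without the 2 rod-rich treated libraries, and 0 to 2 when 1 library was left out of the OSK comparison. The Hk2 to Hk1 ratio difference between Old and Young ran from 1.12 to 1.63 without 1 library and passed (adjusted exact permutation p = 0.0429) without Young replicate 1 (1.595) or 5 (1.26). Signs turned, none of them called, as follows. In Old against Young, with M as a covariate Hk1 was at 0.14 and Pfkl at 0.12, Pfkl was at 0.12 in the libraries without M, which are also those of the paired fit, and Pkm was at -0.045 with the rod score. In Old-OSK against Old-Control, leaving out 1 library gave -0.43 to 0.22 for Hk1 and -0.35 to 0.078 for Pkm. In Old-Control against Old it gave -0.79 to 0.85 for Hk2 and -0.39 to 0.63 for Ldha; Hk2 was at -0.19 with the rod score, Hk2 at -0.66 and Ldha at -0.40 without the rod-richest library of each group, and Pfkl at -0.030 with M. The cause was not tested. With the replicate block 0 members were called in each of the 3 comparisons, and the block changed no call of a member. For deviations of same-numbered libraries, r was not over 0.1 throughout in Old against Young (-0.19 to 0.14) or in Old-Control against Old (-0.19 to 0.36). That check cannot show whether libraries were paired. Over all genes the block called 0 in Old against Young, where the same libraries without it gave 105 higher and 86 lower. In Old-OSK against Old-Control it called 381 higher and 80 lower, against 898 and 92 in the same libraries without it and 65 and 51 over all libraries. The least abundant member, Hk2, was at 7.41 CPM or more in every library.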
